A study of Triticum aestivum and Triticum monococcum subsp. aegilopoides x Triticum urartu with 8 samples.

Results

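Type IV necrosis is a form of hybrid necrosis seen in wild diploid wheat hybrids. It was compared with wild type on 4 single-colour Agilent arrays out of the 8 in the series, 2 arrays of type IV hybrids and 2 of wild-type hybrids. Each array held 37826 transcript probes. For a probe to be tested, both arrays of either group had to read it well above background. This left 24696 probes, of which 64 were left out for an outlier flag, so that 24632 (65.1%) were tested. The rule follows the scanner's flag and not a fixed level: the lowest group mean inside it was -5.55 and the highest outside it -2.82, on the log2 scale used below. All 4 samples were hybrids of Triticum monococcum subsp. aegilopoides and Triticum urartu, untreated, grown for 1 week at 23 °C, with RNA taken from the first leaf. The labels do not name the parental accessions of either hybrid, and do not state whether a group's arrays are separate plants. The p-values below therefore measure only sample-to-sample spread, which technical error alone could produce. The other 4 arrays of the series hold hexaploid (common wheat) hybrids, wild type and type I necrosis, and are used only in the last comparison.

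Hybrid necrosis is the gradual death of leaf tissue in the progeny of healthy parents, and it arises when alleles from the parents are brought together in 1 plant. In several plant species it has been traced to immune receptors or their partners that act as if a pathogen were present. T. monococcum subsp. aegilopoides, a wild einkorn, and T. urartu are closely related diploid species, and T. urartu is the source of the A genome of common wheat. The comparison asks which leaf transcripts differ between necrotic and wild-type hybrids.

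Levels are given as log2 of the processed intensity less the array's 75th percentile over transcript probes. Before this scaling the 75th percentile was 591 and 558 for wild type, and 1207 and 1509 for type IV. The 4 E1A control probes that were above background at every spot had mean log2 intensities of 10.29 and 10.21 in wild type and of 10.25 and 10.02 in type IV. Relative to these controls the 75th percentile stood at -1.08 on both wild-type arrays, and at -0.01 and 0.54 on type IV arrays 1 and 2. A change of 0 below thus means that a transcript kept its place relative to the 75th percentile, while the transcript signal itself was higher in type IV relative to the controls. All 4 arrays lay on 1 slide and were scanned on the same day, with wild type at positions 1 and 2 and type IV at positions 3 and 4, so position and necrosis cannot be told apart. Other differences of genotype between the hybrids, including how well their alleles match a probe, cannot be told apart from necrosis either. In whole-leaf RNA, fewer cells of a type and less RNA per cell cannot be told apart.

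Most of the tested leaf transcripts differed between type IV necrosis and wild type. With the 4 arrays fitted alone, 15080 of 24632 probes (61.2%) were called, 6684 higher in type IV (27.1%) and 8396 lower (34.1%). Calls are at an adjusted p under 0.05 by limma with Benjamini-Hochberg adjustment, with 2 residual and 2.0 prior degrees of freedom. The median rise was 1.02 on the log2 scale and the median fall -1.27. The smallest change called was 0.32, and 6392 of the calls were changes of less than 2-fold. Rises of at least 2-fold numbered 3402 and such falls 5286. The 8-fold limit was passed by 558 rises (2.27% of the tested probes) and 892 falls (3.62%), and the 32-fold limit by 119 and 123, with readings below background taken as measured. Of the 8-fold changes, 285 rises and 485 falls were of probes above background on all 4 arrays. With only the bound described below counted where neither array of a group read a probe above background, 417 rises and 641 falls reached 8-fold, and 70 and 79 reached 32-fold. Groups of 2 arrays that do not overlap were common: this held for 21094 of the tested probes (85.6%), and for all 15080 that were called. A further 408 probes changed at least 2-fold without being called.

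The direction of these calls depends on the scaling. With median centring 8515 rose and 7079 fell, with spike-in scaling 16492 rose and 2021 fell, and normexp background correction left 5479 rises and 11303 falls. The median change over all tested probes moved from -0.05 to 0.15, 1.30 and -0.30 in these settings. The number of calls depends on the wild-type arrays: without wild-type array 1 or 2 it was 8962 or 8991, with the spread then taken from the type IV arrays alone.

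Changes were found at all signal levels. In quartile 1, which holds the tested probes with the lowest mean levels, 60.6% were called, and in quartiles 2, 3 and 4 60.3%, 59.9% and 64.0%. The balance of directions differed between quartiles, with no steady order: quartile 1 had 1299 rises and 2434 falls, quartile 2 had 1619 and 2096, quartile 3 had 1893 and 1795, and quartile 4 had 1873 and 2071. Quartile 1 also held 239 of the 558 rises and 393 of the 892 falls measured as at least 8-fold, and 98 of 417 and 142 of 641 with bounds. Some undetected probes read lower in type IV on this scale. RD29A, above background in no diploid sample, averaged -7.24 in wild type and -7.77 in type IV. For cor47, DREB2A and DREB2B, also undetected, the means were -7.20, -7.16 and -7.27 against -7.69, -7.65 and -7.74. With no filter on dim probes the median change was -0.46, with 6038 rises and 12885 falls. The share of this shift in the falls of quartile 1 was not tested.

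**Figure D1:**
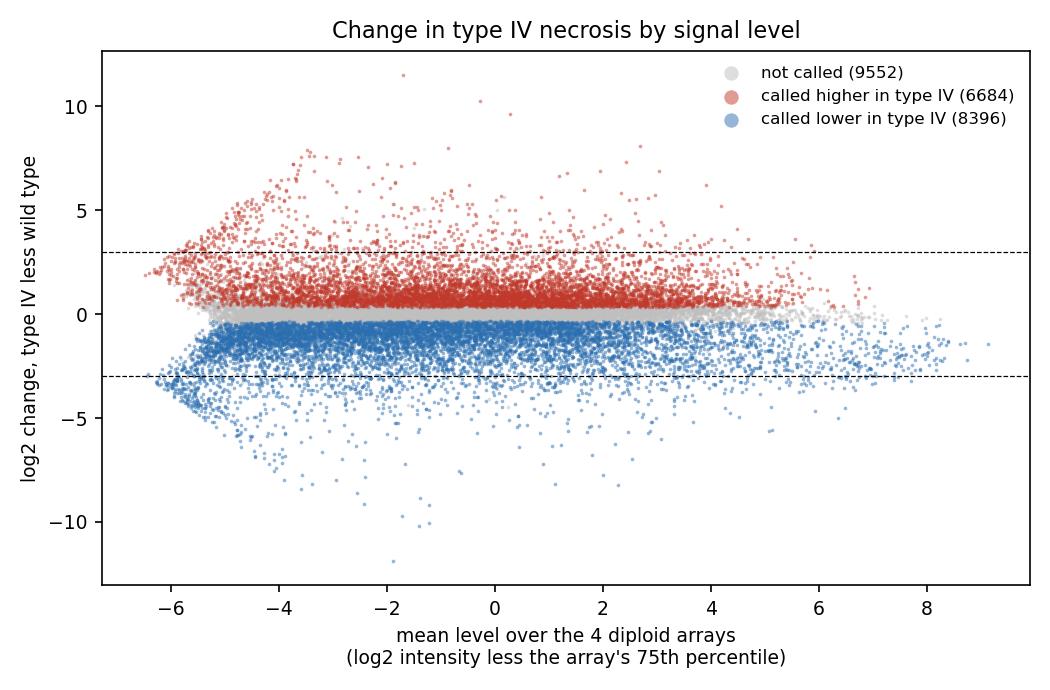
Log2 change in type IV necrosis (vertical axis, type IV less wild type) against the mean level over the 4 diploid arrays (horizontal axis, log2 intensity less the array's 75th percentile), 1 point per tested probe. Red points (6684) were called higher, blue points (8396) called lower and grey points were not called; the dashed lines mark 8-fold changes, and points beyond them occur at every level.

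Among probes above background on all 4 arrays, the largest rise was that of whsh_allContig408. Its levels were -4.75 and -4.34 in wild type and 5.53 and 4.67 in type IV, a change of 9.64 (SE 0.35, adjusted p = 0.000698, 798-fold). The lowest level above background on the wild-type arrays was -5.07 and -5.17, and with normexp the change of this dim probe was 7.89. No gene name is paired with this ID in the files, and the same holds for every contig and clone named below. The probe MUG021E11R990620 stood at -0.33 and -0.46 in wild type and at 6.22 and 6.73 in type IV, a rise of 6.87 (SE 0.21, adjusted p = 0.000554). MUG004H05R990615 moved alike, from -1.45 and -1.54 to 5.13 and 5.68, a rise of 6.90 (SE 0.22, adjusted p = 0.000566). In all 3 the groups lay far apart relative to the gap between the arrays of a group.

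The rise of wheat0130Contig14940 had a small error, with -2.06 and -2.22 in wild type, 4.49 and 4.54 in type IV and a change of 6.65 (SE 0.11, adjusted p = 0.000487). For MUGEST2003_23lib_Contig2929_83 the type IV arrays were almost equal, at 1.11 and 1.09, against -5.00 and -4.92 in wild type, and the change was 6.06 (SE 0.10, adjusted p = 0.000487). The probe wheat0130Contig963 rose by 6.20 (SE 0.21, adjusted p = 0.00063), from -3.61 and -3.54 to 2.36 and 2.90. These rises differed little between arrays of a group. The wild-type levels of MUGEST2003_23lib_Contig2929_83 lay close to the lowest levels above background there (-5.07 and -5.17), and with normexp its change was 4.04. For wheat0130Contig963 and wheat0130Contig14940 the change with normexp was 4.96 and 6.02.

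Larger gaps within a group were found for the remaining pair. The probe wheat0130Contig2544 had wild-type levels of -0.78 and -3.33, a gap of over 2 on the log2 scale, and type IV levels of 4.34 and 5.15. Its rise of 6.80 (SE 0.95) still had an adjusted p of 0.00665. whsh_allContig737 was at 0.73 and 0.86 in wild type and at 7.85 and 6.17 in type IV, a rise of 6.21 (SE 0.60, adjusted p = 0.003). A further 2 probes with rises of this size are named in the files only by a sequence database number.

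The largest fall among probes above background on all 4 arrays was that of MUGEST2003_23lib_Contig438_355, from 6.36 and 6.41 in wild type to -1.51 and -2.15 in type IV, a change of -8.22 (SE 0.25, adjusted p = 0.000554). Of the 8 largest falls, 5 were of probes whose names begin with whsh, a group of 970 among the 24632 tested probes. This group was bright in wild type, with median levels of 2.62 and 2.65 against -0.94 and -0.93 over all tested probes. Among the 5, whsh_allContig1100 went from 4.49 and 4.50 to -2.56 and -2.89, a change of -7.22 (SE 0.15, adjusted p = 0.000487). The wild-type arrays of whsh_allContig556 both read 6.02 or 6.03, and type IV -0.30 and -1.57, a change of -6.96 (SE 0.46, adjusted p = 0.00152).

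In the other 3 of these whsh probes the type IV arrays lay further apart. whsh_allContig871 fell from 5.89 and 5.87 to -0.67 and -3.07 (change -7.75, SE 0.85, adjusted p = 0.00386). whsh_allContig314 fell from 3.20 and 3.21 to -3.48 and -5.44 (change -7.67, SE 0.70, adjusted p = 0.00263). For whsh_allContig461 the levels were 5.07 and 5.33 in wild type and -1.41 and -4.52 in type IV, and the change was -8.17 (SE 1.11, adjusted p = 0.00615). On each of the 3, array 2 was the lower of the type IV arrays.

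The same order of the type IV arrays was seen in the other falls. MUGEST2003_23lib_Contig14582_393 had wild-type levels of 5.13 and 5.27 and type IV levels of -0.32 and -2.86, a change of -6.78 (SE 0.91, adjusted p = 0.00593). wheat0130Contig8816 stood at 3.06 and 3.16 in wild type and at -4.09 and -4.75 in type IV, a change of -7.53 (SE 0.26, adjusted p = 0.000614). Of the 8 probes, all had their lower type IV level on array 2.

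**Figure D2:**
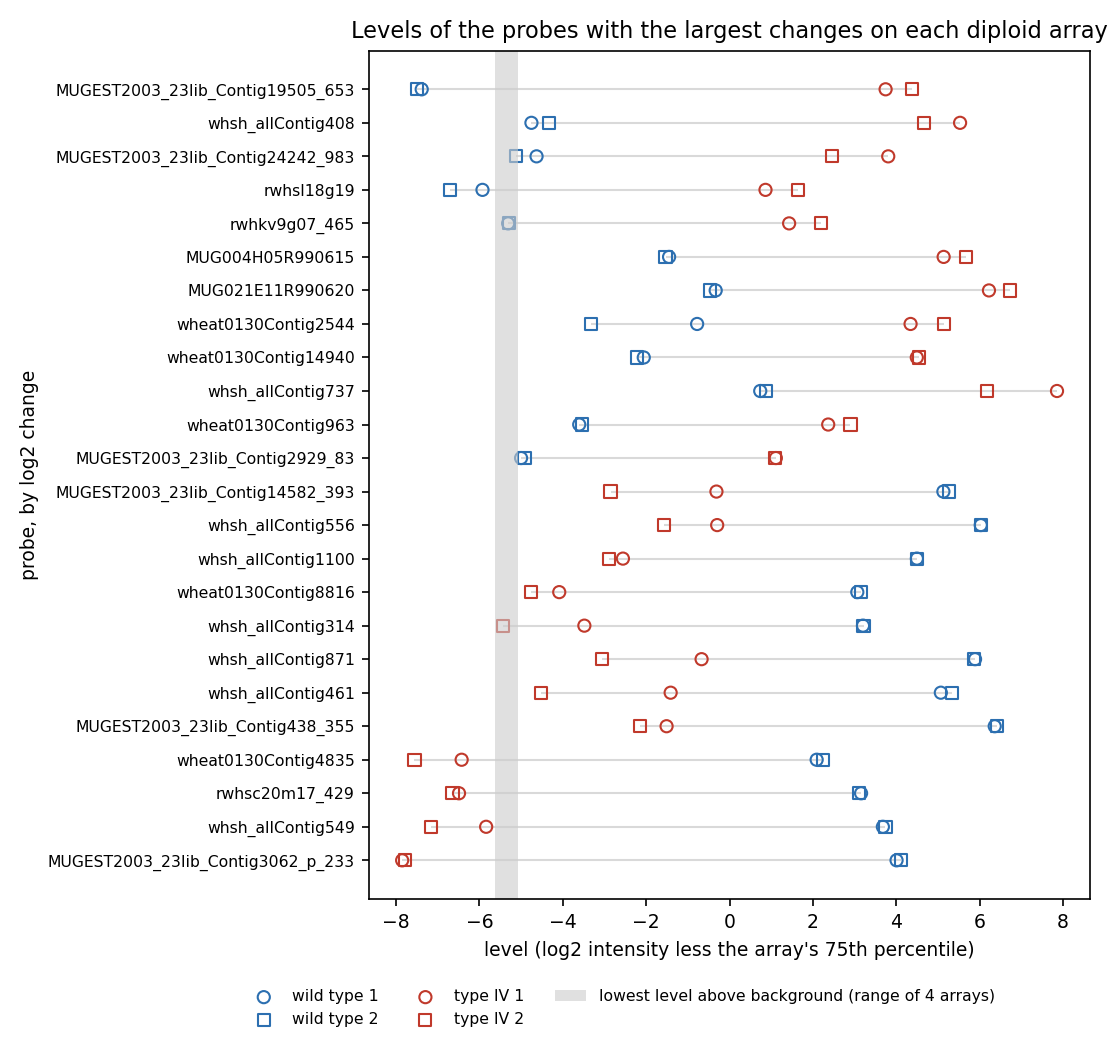
Levels (horizontal axis, log2 intensity less the array's 75th percentile) of the 24 probes with the largest changes (vertical axis) on each of the 4 diploid arrays. Blue symbols are wild type and red symbols type IV, circles array 1 and squares array 2; the grey band spans the lowest level above background on the 4 arrays, from -5.63 to -5.07, and most readings of the undetected group of the 8 background-limited probes lie below it, down to -7.85.

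Some transcripts crossed the detection limit. Detection was limited to the 2 type IV arrays for 939 probes, 713 of them called higher. It was limited to the 2 wild-type arrays for 804 probes, 794 of them called lower. These probes passed the background rule through the detected group alone, so the direction of their calls was fixed beforehand. Of the 939, 0 were called lower, and of the 804, 0 were called higher. The lowest level above background also lay lower on the type IV arrays on this scale, at -5.63 and -5.56 against -5.07 and -5.17 in wild type. So did the undetected probes listed with the quartiles. How far this shift shaped the 713 and 794 calls was not tested. For such probes only a bound on the fold can be given, taken against the higher of the probe's own value and the lowest signal above background on each array. The bound was at least 8-fold for 106 of the 713 rises and 110 of the 794 falls, and at least 32-fold for 22 and 24. The adjusted p-values printed beside bounds below come from the readings as measured, not from the bounds.

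MUGEST2003_23lib_Contig19505_653 had the largest bound among the rises. Its type IV levels were 3.74 and 4.38, and its wild-type signal was not well above background (-7.39 and -7.50 as measured), so that it was at least 580-fold higher (adjusted p = 0.000487). MUGEST2003_23lib_Contig24242_983 reached 3.80 and 2.46 in type IV and was at least 258-fold higher (adjusted p = 0.00147). With 1.43 and 2.19 in type IV, rwhkv9g07_465 rose at least 122-fold (adjusted p = 0.000783). Type IV levels of rwhsl18g19 were 0.86 and 1.64, a rise of at least 82.8-fold (adjusted p = 0.00112). The order of the type IV arrays differed among them, with array 2 the higher in 3 of the 4.

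In the other direction MUGEST2003_23lib_Contig3062_p_233 stood at 4.004 and 4.12 in wild type and was lower in type IV by at least 807-fold (adjusted p = 0.000487). A second probe for the same contig name, MUGEST2003_23lib_Contig3062_m_43, was also above background in wild type only, at -3.15 and -3.06, and was called lower (adjusted p = 0.000922). whsh_allContig549 was at 3.68 and 3.74 in wild type and fell at least 631-fold (adjusted p = 0.000938). The levels of rwhsc20m17_429 in wild type were 3.15 and 3.11 and its fall at least 423-fold (adjusted p = 0.000487). Those of wheat0130Contig4835 were 2.09 and 2.23 and its fall at least 216-fold (adjusted p = 0.000915). The wild-type arrays thus differed by at most 0.14 on these 4 probes.

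Only 6 probes are named by a gene symbol in the files, and all of these belong to the list of cold and dehydration genes; none of the 37826 probe names was found in the RefSeq gene table for common wheat. Of the 15 symbols on that list, 6 were measured, 2 were tested, 1 was called lower and none higher. RD29B is named for a gene of Arabidopsis thaliana that responds to dehydration and abscisic acid. Its levels were -3.26 and -3.44 in wild type and -4.32 and -4.17 in type IV, so that the groups did not overlap, and the change was -0.89 (SE 0.13, adjusted p = 0.00685). The call was lost without wild-type array 1 (change -0.80, adjusted p = 0.0618), and with spike-in scaling the sign turned (0.45, adjusted p = 0.265).

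Wcor15 is a cold-responsive gene of wheat whose protein is targeted to the chloroplast. It was at -0.32 and -0.46 in wild type and at -1.15 and -0.35 in type IV, so that type IV array 2 lay within the wild-type range and array 1 below it. The change of -0.37 was not called (SE 0.30, adjusted p = 0.344), was 0.033 without type IV array 1 (adjusted p = 0.781) and reached -0.77 without array 2 (adjusted p = 0.0125). The sign turned with spike-in scaling as well (0.98, adjusted p = 0.0351). Probes named RD29A, cor47, DREB2A and DREB2B, after dehydration-responsive genes of A. thaliana and the transcription factors that act on them, were not well above background on any of the 4 arrays. No probe is named in the files for leaf markers such as Rubisco or the chlorophyll a/b-binding proteins, nor for pathogenesis-related proteins, so the labelled tissue was not checked against markers and those lists gave no value.

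The type IV arrays differed from each other more than the wild-type arrays did for most probes. Over the tested probes the median gap between the arrays of a group was 0.23 in type IV and 0.08 in wild type on the log2 scale, and the 95th percentile was 0.93 and 0.50. Among 21796 probes above background on all 4 arrays, the type IV gap was the larger for 16729 (76.8%). The median type IV gap was also the larger of the pair under the 5 other scalings and corrections, from 0.20 with normexp to 0.59 with spike-in scaling, against 0.08 in wild type.

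On type IV array 2 the changes were mostly larger than on array 1. Of the 6684 probes called higher, 5031 (75.3%) had the higher level on array 2, and of the 8396 called lower, 5887 (70.1%) had the lower level there. The median rise was 0.92 on array 1 and 1.12 on array 2, each against the wild-type mean, and the median fall was -1.19 and -1.35. Among changes measured as at least 8-fold, array 2 was the further from wild type for 366 of 558 rises (65.6%) and 588 of 892 falls (65.9%), and for 204 of 285 rises (71.6%) and 410 of 485 falls (84.5%) in probes above background on all 4 arrays. The pattern in both directions was also found with quantile normalization (76.5% and 65.9%), median centring (82.3% and 61.1%), normexp (72.2% and 79.5%) and the authors' value table (73.1% and 72.0%). It did not hold with spike-in scaling. There array 2 had the higher level for 97.1% of the 6684 probes, and the lower level for 16.3% of the 8396. The correlation over all probes was 0.987 within each group and 0.925 to 0.941 between groups.

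**Figure D3:**
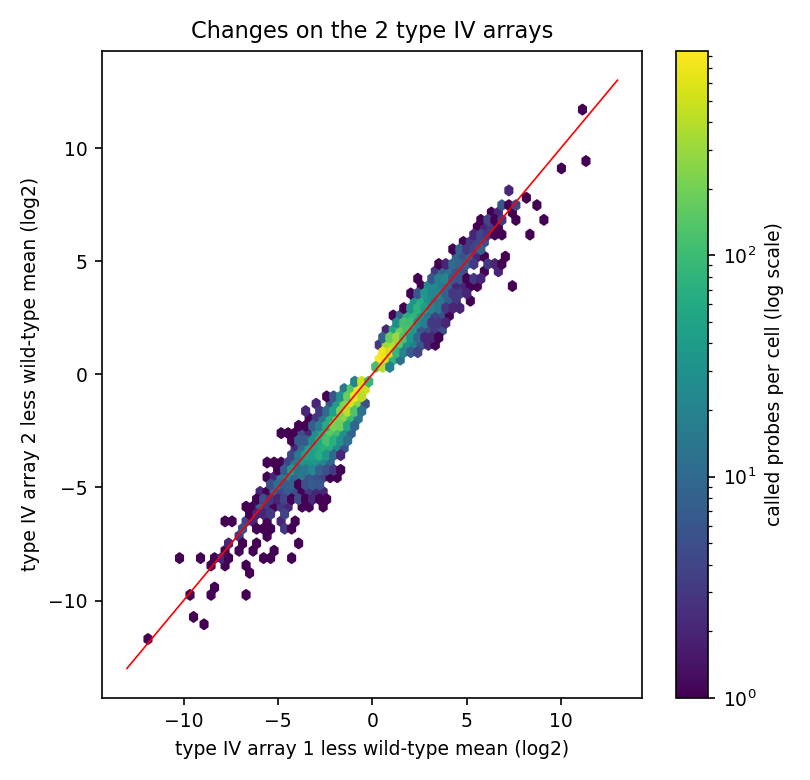
Changes of the 15080 called probes on type IV array 1 (horizontal axis) and array 2 (vertical axis), each as the log2 level less the wild-type mean; colour gives the number of probes per cell on a log scale and the red line marks equal changes. Most probes lie on the outer side of the line for array 2, with median rises of 0.92 and 1.12 and median falls of -1.19 and -1.35 on arrays 1 and 2.

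Some transcripts differed between the type IV arrays by more than the groups did. Of the probes above background on all 4 arrays, 25 had a type IV gap of over 8-fold, against 12 with such a gap in wild type, and in 24 of the 25 array 1 was the higher. Over all tested probes, dim readings included, the order was the reverse, with 54 such gaps in type IV and 75 in wild type. The widest gap was that of wheat0130Contig6935, at 0.95 and 0.84 in wild type, 2.00 on type IV array 1 and -3.65 on array 2. The probe whsh5j02 was at 2.17 and 2.18 in wild type, 1.53 on type IV array 1 and -4.00 on array 2.

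In rwhr22g15 the wild-type levels of 2.12 and 2.14 lay below that of type IV array 1 (2.70) and above that of array 2 (-2.82). The same held for MUGEST2003_23lib_Contig2161_102, with 0.21 and 0.19 in wild type, 1.91 on type IV array 1 and -3.34 on array 2. None of the 4 was called (adjusted p from 0.20 to 0.692), and only 1 of the 25 was, against 61.2% of all tested probes. A wide type IV gap enters the spread used by the test, so picking probes by that gap made calls unlikely beforehand. On each of the 4 probes array 2 lay below both wild-type arrays, while array 1 lay above them in 3 and below them in whsh5j02.

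Probes grouped by the leading part of their names differed in their calls between groups. The names fell into 40 groups by their leading part, 28 of them with at least 100 tested probes. The 970 tested probes named whsh had 565 falls (58.2%) and 153 rises (15.8%), against 34.1% and 27.1% of all tested probes, and a median change of -1.09 against -0.05. They made up 120 of the 892 falls measured as at least 8-fold, or 12.4% of the tested whsh probes, and 109 of 641 with bounds. What the letters stand for is not given in the files. The shift was found both in contig names (502 falls and 131 rises of 850, median -1.13) and in clone names without a leading r (21 and 7 of 40, median -0.57) or with it (42 and 15 of 80, median -0.58).

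Falls outnumbered rises among whsh probes at each signal level. In quartile 1 of levels 55 of 78 whsh probes fell (70.5%), against 39.1% of the probes with other names. The shares were 46.7% against 33.8% in quartile 2 and 46.2% against 28.7% in quartile 3. In quartile 4 381 of 614 whsh probes fell, or 62.1%, against 30.5%. Among probes with other names falls also outnumbered rises in quartiles 1 and 2. Relative to the median of all probes the whsh median was -1.04, a value that a shift of whole arrays (median centring, spike-in scaling) cannot move. It was -0.79 with quantile normalization, -0.73 with normexp and -0.44 with no filter on dim probes. Without type IV array 1 or 2 it was -1.17 or -0.88. In absolute terms the direction depends on the scaling: with spike-in scaling 400 whsh probes rose and 278 fell, with a median change of 0.25 where that of all probes was 1.30. On the hexaploid arrays, which share no sample with these, 1045 whsh probes passed the same rule, a set that differs from the 970 tested here. They had 657 falls and 194 rises in type I necrosis, against 29.5% falls and 38.3% rises over all probes tested there.

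The group named whv had 88 falls (62.9%) and 21 rises (15.0%) of 140 tested probes (median -0.91). The group whkp had 58 falls (52.3%) and 22 rises (19.8%) of 111 (median -0.63). All tested probes had 34.1% falls and 27.1% rises. With spike-in scaling these too turned, to 53 rises and 27 falls and to 53 rises and 16 falls. The largest group, wheat0130Contig, had 3262 rises (32.2%) and 2853 falls (28.2%) of 10122, and a median of 0.10. With normexp it had 2962 rises against 3700 falls, where all tested probes had 5479 rises against 11303 falls. Probes named MUG had 240 rises (22.0%) and 298 falls (27.3%) of 1091. Of 136 tested probes named by a sequence database number, 37 rose (27.2%) and 54 fell (39.7%). The shares of these last groups lay near those of all tested probes.

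**Figure D4:**
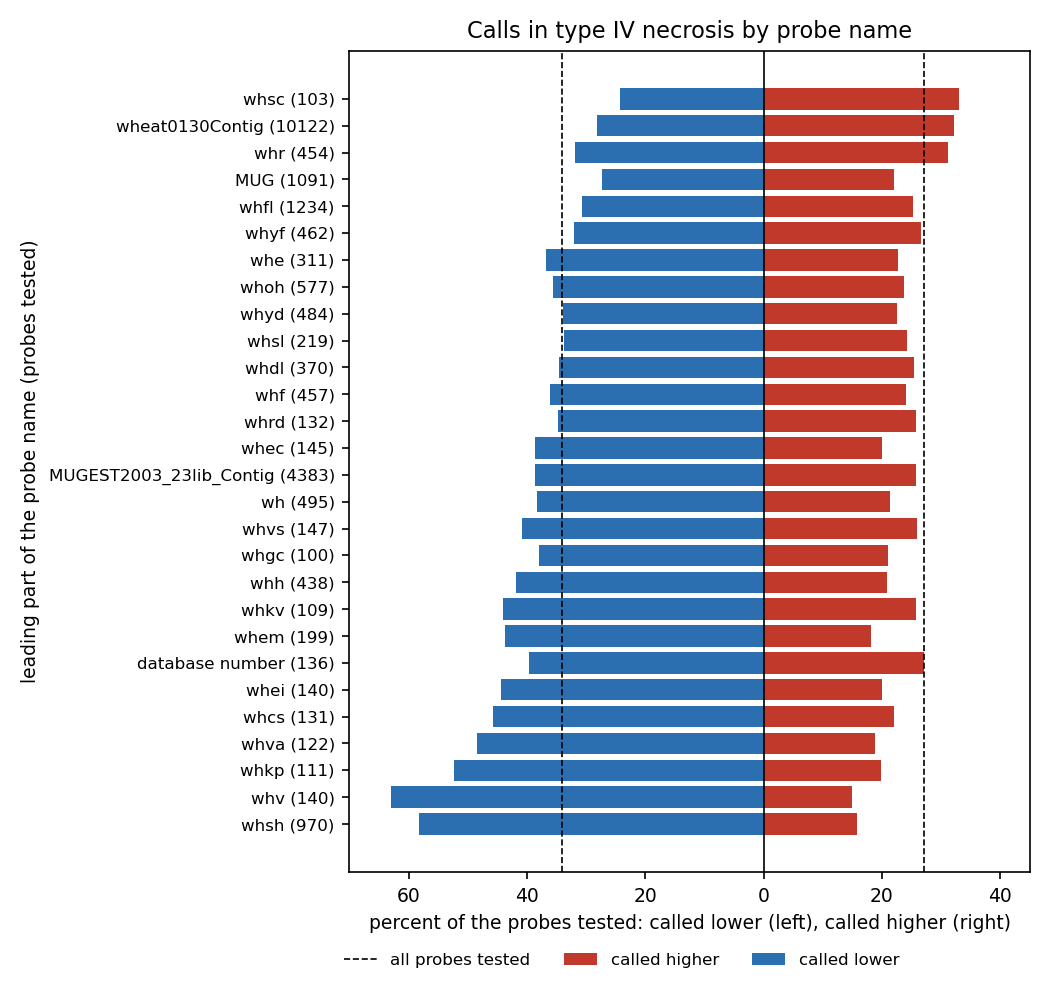
Percent of tested probes called lower (blue, to the left) and higher (red, to the right) in type IV necrosis for each of the 28 groups of probe names with at least 100 tested probes (numbers in brackets), ordered by median change. The dashed lines mark all tested probes (34.1% lower, 27.1% higher); whsh and whv, at 58.2% and 62.9% lower, extend furthest to the left.

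Probes that share a clone name gave a check within the arrays. In 2448 pairs the names differed by a leading r and, in some, by a number at the end; whether both probes of a pair read the same transcript is not given in the files. Both were tested in 965 pairs, and only 1 in 805. Of the 965 pairs, both probes were called in 453, only 1 in 268 and neither in 244. Over all tested probes 61.2% were called. Of the 453 pairs, 166 rose together and 239 fell together, so that 89.4% had the same direction, and 48 were called in opposite directions. Across the 965 pairs, which share the same arrays, the changes correlated at r = 0.632 (Spearman's rho = 0.665). The median gap between the changes of a pair was 0.31 on the log2 scale. The gap was less than 1 in 778 pairs and more than 3 in 42.

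The pairs named here were chosen after their values were seen. Both probes were measured as changed at least 8-fold in the same direction in 7 rising and 12 falling pairs, of which 3 and 6 reached 8-fold with bounds. The probe whdl6j11 rose from -0.13 and -0.19 to 4.58 and 3.76 (change 4.33, adjusted p = 0.00169), and rwhdl6j11 from 4.17 and 4.21 to 7.86 and 7.17 (change 3.32, adjusted p = 0.00202). For rwhdl23c19 the levels went from 1.02 and 0.99 to -3.50 and -3.59 (change -4.55, adjusted p = 0.000487), and whdl23c19, above background in wild type only, fell at least 25.9-fold (adjusted p = 0.000508). Both probes of each pair were called in the same direction.

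The opposite calls were uneven: in 40 of the 48 pairs the probe without the r was the one called lower. In the pair whoh11a11 the probe without r was above background in wild type only (-2.19 and -2.26) and at least 10.3-fold lower in type IV (adjusted p = 0.000487). Its partner rwhoh11a11 was above background in type IV only (-2.46 and -2.45) and at least 6.36-fold higher there (adjusted p = 0.000547). The pair whh8g14 was called in the same opposite directions, at least 7.67-fold lower without r and at least 2.1-fold higher with it. No pair with opposite calls reached 8-fold on both probes with bounds. Contig names of another kind carry the letter m or p. Of 574 contigs with 1 probe of each, both were tested in 43, only the p probe in 164 and only the m probe in 67; in the 43, 20 pairs fell together, 2 rose together and 4 were called in opposite directions.

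**Figure D5:**
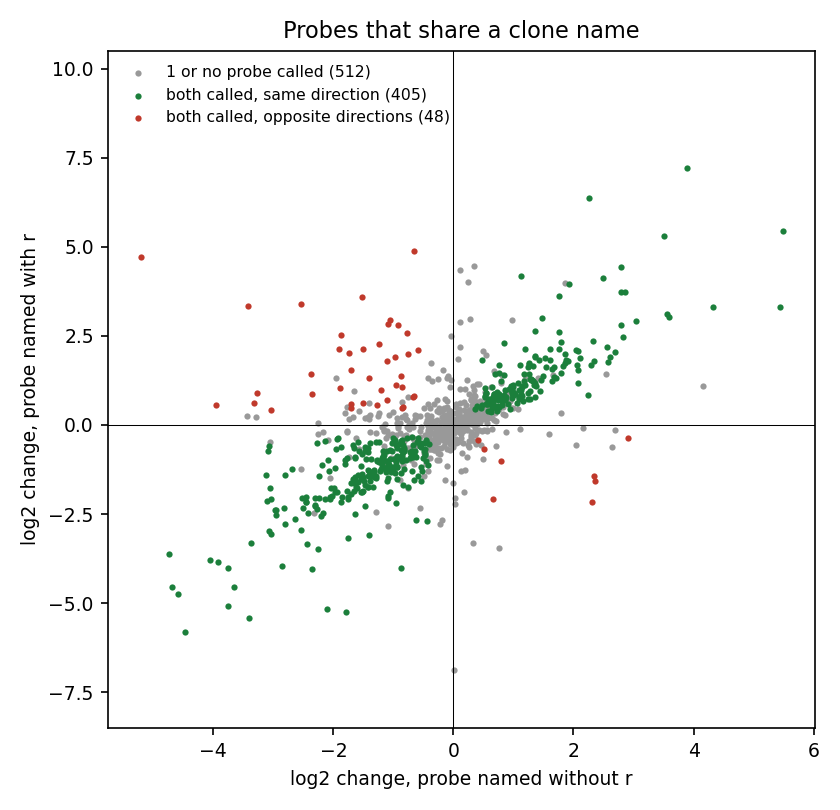
Log2 change in type IV necrosis of the probe named without r (horizontal axis) and of its partner named with r (vertical axis) in 965 clone pairs. Green points are pairs called in the same direction (405), red points pairs called in opposite directions (48) and grey points the rest; most red points lie at the upper left, where the probe without r fell.

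The last comparison sets the same probes beside type I necrosis of hexaploid wheat, on its own 4 arrays and fitted alone. Levels are not compared between the wheats, which lay on separate slides. Of the 6684 probes that rose in type IV, 6384 were tested there, and 3908 of them rose (61.2%) and 1014 fell (15.9%). Of the 8396 that fell, 7914 were tested, and 4459 fell (56.3%) and 1121 rose (14.2%). Over the 23562 probes tested in both, 39.0% rose and 30.2% fell in type I. For changes measured as at least 8-fold the counts were as follows. Of the 454 tested among the rises, 181 rose (39.9%) and 189 fell (41.6%) in type I. The share of these that rose was thus near that of all probes tested in both. Of the 770 tested among the falls, 85 rose and 577 fell (74.9%). With bounds, 143 of 362 such rises rose and 165 fell (45.6%) in type I, and 46 of 605 such falls rose and 500 fell (82.6%).

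The difference between the effects, type IV less type I, was tested in a fit of all 8 arrays, where 12970 of 23562 probes (55.0%) were called. Necrosis type, wheat and slide cannot be told apart in this difference. Most probes named here were picked for their type IV changes, which the test uses again. For MUGEST2003_23lib_Contig438_355 the changes were -8.22 in type IV and -8.23 in type I, and their difference was not called (0.01, SE 0.28, adjusted p = 0.984). whsh_allContig314 had -7.67 and -7.59, with a difference of -0.08 (SE 0.80, adjusted p = 0.938). Neither type I array read these probes well above background, so the size of the type I fall is not exact, and a difference that misses the threshold does not show that the effects are equal.

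Other falls were much smaller in type I. The change of whsh_allContig1100 was -7.22 in type IV and -0.68 in type I (difference -6.54, SE 0.18, adjusted p = 4.57e-06), and that of whsh_allContig871 was -7.75 and -1.56 (difference -6.19, SE 0.98, adjusted p = 0.00308). Among the rises, MUG004H05R990615 (4.16) and MUG021E11R990620 (3.17) also rose in type I, by less than in type IV. The probes whsh_allContig408 and wheat0130Contig14940 fell there, with changes of -3.98 and -2.75. None of the hexaploid arrays read MUGEST2003_23lib_Contig3062_p_233 or Wcor15 well above background.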

How the data were processed

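RNA of the first leaf (0.5 µg) was labelled with Cy3, per the labels' protocols. The deposited scanner files hold spot intensity values from Agilent Feature Extraction, version 10.10.1.1 with protocol GE1_1010_Sep10 per the file headers and 9.5 per the submitters' processing notes. The background-corrected intensity was deposited unscaled between arrays; flags (other columns, 0 or 1) mark spots above background, outlier spots and saturated spots, and no transcript spot was saturated. The authors' value table equals this intensity times 1 factor per array (2.96, 3.12, 1.58 and 1.25 on the diploid arrays), over probes of intensity 50 or more, so it is linear and not centred.

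Here log2 intensity less the 75th percentile of the 37826 transcript spots was fitted with limma 3.58.1 in R 4.3.3 (lmFit, eBayes) on the 4 diploid arrays; 1417 control spots were left out. Alternatives were other scalings (spike-in scaling on 4 of 10 E1A controls), normexp with offset 50 (on the median signal, the files used having no mean signal), other filters, all 8 arrays, a trend, a replicate block and leaving out each array. Replicate numbers are shared between the groups, but deviations of same-numbered arrays did not correlate (-0.01).

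The text names the 8 largest rises and 8 largest falls among called probes above background on all 4 arrays with separate groups, the 4 largest bounds each way among probes above background in 1 group only, the 4 largest gaps between the type IV arrays, and listed gene symbols; probes named by database numbers were passed over. Members and lists were chosen with earlier results of these data known. The number of arrays limits the precision.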

Additional observations from a re-analysis of the deposited data

Results flagged for a closer look

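For 22 of the 30 tested named probes the effect in type IV differed from that in type I by the test of the difference itself (limma, all 8 arrays, Benjamini-Hochberg over 23562 probes). MUGEST2003_23lib_Contig3062_p_233 and Wcor15 had no such test. Over all probes with the test 55.0% were called. Most named probes were picked for large type IV changes, which the test uses again, so a difference was likely beforehand. Necrosis type, wheat and slide cannot be told apart in it. Among the rises the difference, type IV less type I on the log2 scale, was 13.63 for whsh_allContig408, 2.74 for MUG004H05R990615, 3.70 for MUG021E11R990620, 7.39 for wheat0130Contig2544, 9.40 for wheat0130Contig14940, 16.40 for whsh_allContig737, 5.24 for wheat0130Contig963 and 2.72 for MUGEST2003_23lib_Contig2929_83. Among probes above background in type IV only it was 10.11 for MUGEST2003_23lib_Contig19505_653, 11.48 for MUGEST2003_23lib_Contig24242_983, 2.23 for rwhkv9g07_465 and 9.52 for rwhsl18g19. Among the falls it was -6.19 for whsh_allContig871, -3.05 for wheat0130Contig8816, -6.54 for whsh_allContig1100 and -1.61 for whsh_allContig556. It was positive for whsh_allContig461 (4.38) and MUGEST2003_23lib_Contig14582_393 (3.53), which fell further in type I. Among probes above background in diploid wild type only it was -8.64 for whsh_allContig549, -6.48 for rwhsc20m17_429 and -9.40 for wheat0130Contig4835. For RD29B it was -0.75 (SE 0.18, adjusted p = 0.0142). Where a probe was not above background on the arrays of a group, the size is not exact.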

How the results depend on the processing

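Spike-in scaling gave 16492 probes called higher and 2021 called lower in place of 6684 and 8396, and no filter on dim probes gave 12885 called lower. Leaving out each array in turn gave 8962 to 17729 calls, 3516 to 8149 of them higher and 5374 to 9580 lower; each fit without a wild-type array takes its spread from the type IV arrays alone, and each fit without a type IV array from the wild-type arrays alone. The replicate block gave 13643 calls (5893 higher, 7750 lower); the numbers do not pair the arrays by any label, and the pairing check gave a correlation of -0.01. The other alternatives gave 13538 to 18194 calls. Rises made up 44.3% of the calls, and 51.6% with quantile normalization, 54.6% with median centring, 51.2% with the authors' value table, 89.1% with spike-in scaling and 32.6% with normexp. At least 8-fold, spike-in scaling gave 1844 rises and 239 falls, normexp 214 and 353, and a fit of probes above background on all 4 arrays 286 and 486, against 558 and 892; bounds in place of readings below background, chosen after seeing the data, gave 417 and 641. Of 412 values of the 30 tested named probes under the alternatives, 397 kept their direction and their side of the threshold. This was largely set beforehand, as 24 of the probes were picked for large called changes. The trend, the replicate block, the fit of all 8 arrays and other filters also leave the change itself as it was. The count thus does not show how stable the calls are over all probes. Leaving out each array in turn, the change ranged from -4.55 to 1.104 for wheat0130Contig6935, from -4.95 to 0.57 for rwhr22g15, from -3.53 to 1.71 for MUGEST2003_23lib_Contig2161_102 and from -0.77 to 0.033 for Wcor15, so that each sign turned. Spike-in scaling also turned the sign for MUGEST2003_23lib_Contig2161_102 (0.43), RD29B (0.45) and Wcor15 (0.98). The cause was not tested. Dim probes have only bounds on their changes.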
